A study of Mus musculus with 14 samples.

Results

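The genes described here encode the enzymes and transporters of glycolysis, of lactate production and export, of the entry of pyruvate into mitochondria, and of the pentose phosphate branch. They were chosen as a list of 36 gene symbols, and each symbol matched exactly 1 of the 46517 gene rows of the deposited expression table. All 36 passed the filter on low values, an FPKM (fragments per kilobase of transcript, scaled to the mapped reads of the library) of at least 1 in at least 3 libraries, which 15719 genes passed.

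The study measured RNA from whole lung tumours of mice with SCLC (small cell lung cancer, which arises from neuroendocrine cells), by stranded, poly(A)-selected, single-end RNA-seq. RPM tumours (n = 11) carried Rb1 fl/fl, Trp53 fl/fl and a Cre-activated (LSL, lox-stop-lox) Myc T58A allele, a stabilised form of Myc, which was LSL/LSL in 9 tumours and LSL/+ in 2 (replicates 2 and 4). RPR2 tumours (n = 3) carried Rb1 fl/fl, Trp53 fl/fl and p130 fl/fl, where p130 is the product of Rbl2. Both models therefore share the Rb1 and Trp53 alleles, and in both an adenovirus with Cre under the Cgrp promoter, a promoter of neuroendocrine cells, started the tumours. All tumours were untreated, cut from the lung by eye and taken fresh or flash frozen, and the age of the mice is not given in the sources used here. Among the 11 RPM titles there are 9 different numbers, and nothing in the labels says that each library came from a separate mouse, so p-values measure only the spread between these libraries. The library codes also go with the model, so that library series and genotype cannot be told apart.

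Glycolysis splits glucose into pyruvate in the cytosol. Pyruvate is then either reduced to lactate, which regenerates NAD+ and leaves the cell through monocarboxylate transporters, or is oxidised in mitochondria by the pyruvate dehydrogenase complex. The pentose phosphate branch draws on glucose 6-phosphate to make NADPH and ribose for nucleotides. Many steps are served by several isoforms from separate genes, and in many tumours the forms favouring lactate are known to be prominent, a number of them as direct targets of Myc or of the hypoxia-inducible factors.

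Depth, estimated from the steps that single reads leave in low values, was 17.6 to 20.04 M mapped reads in RPM libraries and 21.4 to 22.8 M in RPR2 libraries, and no 2 libraries held the same values. Myc stood at 48.4 to 384 FPKM in RPM tumours and at 4.68, 6.83 and 13.6 FPKM in RPR2 tumours. Rb1 stood at 5.19 to 22.6 FPKM in RPM tumours and 39.4, 49.8 and 3.58 FPKM in RPR2 tumours, Trp53 at 7.93 to 77.97 FPKM and 10.3, 12.5 and 5.69 FPKM, and Rbl2 at 3.43 to 9.90 FPKM and 3.58, 7.55 and 3.34 FPKM, but whole-gene values say nothing of a deleted exon. One library went against its label as a neuroendocrine tumour. The summed level of 9 neuroendocrine markers was 231 to 1308 FPKM in RPM tumours and 2431 and 3601 FPKM in RPR2 replicates 1 and 2, but 12.8 FPKM in RPR2 replicate 3, where Dll3 stood at 0.03 FPKM. The summed level of 7 alveolar type 2 markers was 15.6 to 870 FPKM in RPM tumours, 1222 and 1936 FPKM in RPR2 replicates 1 and 2, and 51215 FPKM in RPR2 replicate 3. All 7 of those markers were called lower in RPM tumours. RPR2 replicate 2 also held 25534 FPKM of 4 airway club and ciliated markers, against 1.26 to 1526 FPKM in RPM tumours and 3469 and 839.8 FPKM in RPR2 replicates 1 and 3. The part of these other cells in the differences below was not tested. Values without RPR2 replicate 3 are given beside the called genes of the 36 and wherever they change a call or a direction among the 36. For genes outside the 36 they are given only in part. In whole tumours, fewer cells of a type and less RNA per cell cannot be told apart.

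Of the 36 genes, 12 were higher and 5 were lower in RPM tumours than in RPR2 tumours, and 19 did not pass the test (limma on log2(FPKM + 1) over all genes, Benjamini-Hochberg adjusted p at a threshold of 0.05). Of all tested genes, 18.4% were called higher and 22.8% lower, 41.2% either way. The median log2 difference, RPM minus RPR2, was 0.43 over the 36 genes and -0.06 over all tested genes. In 6 of the 36 genes every RPM tumour lay above every RPR2 tumour, and in 3 every RPM tumour lay below, while 11.1% and 13.6% of all tested genes did so, 24.7% either way. The genes with no overlap were Pgk1, Pgam1, Eno1, Pkm, Pdhb and Tkt above, and Aldoc, Pfkfb2 and Pfkfb4 below. Without RPR2 replicate 3 the counts were 13 higher and 5 lower, beside 16.4% and 27.4% of all tested genes. Without RPR2 replicate 2, the tumour rich in airway markers, they were 6 higher and 4 lower, beside 14.9% and 15.4%. Together the 36 genes made up 0.683% to 1.27% of all FPKM in RPM tumours and 0.952%, 0.557% and 0.793% in RPR2 tumours.

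**Figure D1:**
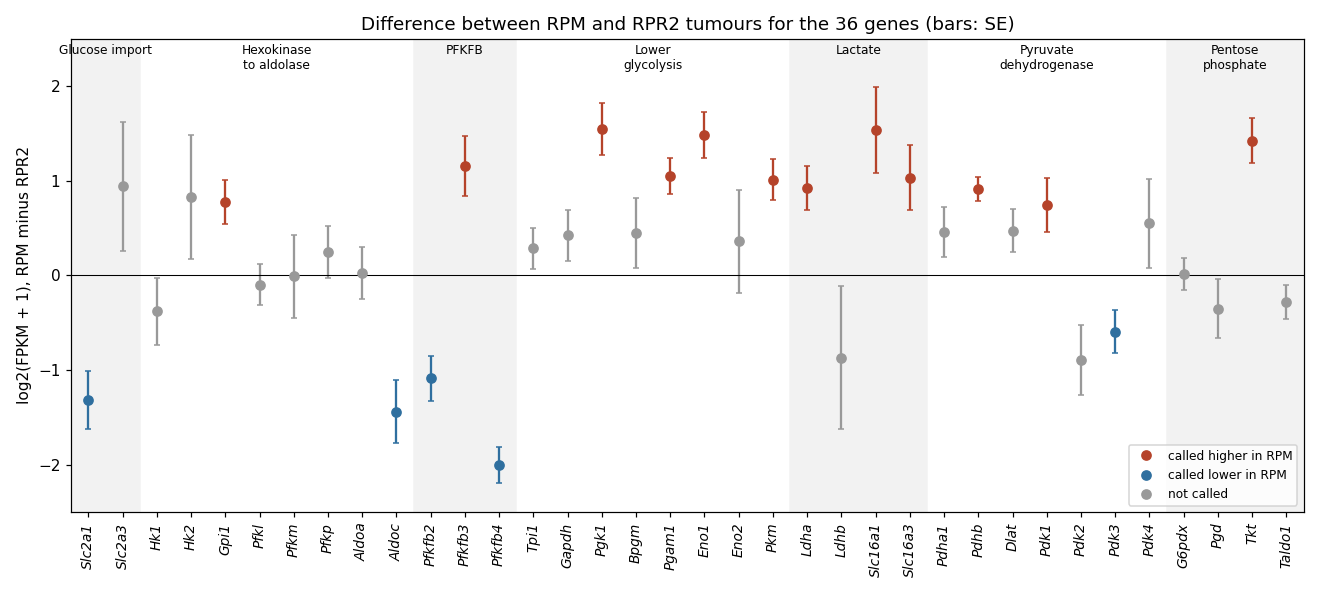
Difference between RPM (n = 11) and RPR2 (n = 3) tumours on the log2(FPKM + 1) scale for each of the 36 genes, grouped by role, with bars for the standard error. Genes called higher in RPM tumours (red, 12 genes) lie mostly in lower glycolysis and lactate handling, genes called lower (blue, 5 genes) among glucose import, aldolase, PFKFB and pyruvate dehydrogenase kinase genes, and grey points did not pass the test.

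The plot of differences by role shows where the calls lay along the pathway. From glucose import to aldolase 1 of 10 genes was higher and 2 were lower in RPM tumours. In lower glycolysis 4 of 8 were higher and none lower, and among the 4 lactate genes 3 were higher and none lower.

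The largest difference among the 36 genes was in Pfkfb4, and the 3 PFKFB genes among the 36 were called in both directions. PFKFB enzymes make and degrade fructose 2,6-bisphosphate, the strongest known activator of phosphofructokinase 1, the committed step of glycolysis. Pfkfb4 (chromosome 9, 108991778 to 109032228, plus strand, GRCm38) stood at 2.27, 2.92 and 3.94 FPKM in RPM tumours (lowest, median and highest, the order used for RPM tumours throughout), against 11.1, 13.9 and 19.9 FPKM in RPR2 replicates 1, 2 and 3. Every RPM tumour was below every RPR2 tumour, and the RPM tumours lay close together. Pfkfb4 fell by 2.005 on the log2 scale (SE 0.191, limma with Benjamini-Hochberg adjusted p = 1.9e-06), and by 1.79 without RPR2 replicate 3 (adjusted p = 8.78e-06). Pfkfb2, the form best known from heart, stood at 1.78, 4.15 and 4.96 FPKM in RPM tumours, against 10.3, 13.4 and 6.37 FPKM in RPR2 tumours. Again the groups did not overlap, and RPR2 replicate 3 was nearest to the RPM tumours. Its log2 difference was -1.09 (SE 0.237, limma, Benjamini-Hochberg adjusted p = 0.00205), and -1.35 without RPR2 replicate 3. Pfkfb3, whose enzyme strongly favours making the activator and which is often high in tumours, went the other way. Its levels were 6.61, 14.4 and 20.98 FPKM in RPM tumours, against 8.07, 3.35 and 5.10 FPKM in RPR2 tumours. The groups overlapped only through RPR2 replicate 1, which lay above the 2 lowest RPM tumours. Pfkfb3 rose by 1.16 on the log2 scale (SE 0.316, limma with Benjamini-Hochberg adjusted p = 0.00878), and this call held without RPR2 replicate 3 (1.15, adjusted p = 0.024) and was lost without RPR2 replicate 2 (0.90, adjusted p = 0.0742).

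As shares of the summed FPKM of the 3 PFKFB genes, which is a level per length, Pfkfb3 made up 46.7% to 76.5% in RPM tumours and 27.3%, 10.9% and 16.2% in RPR2 tumours. Pfkfb4 made up 8.32% to 19.9% in RPM tumours and 37.7%, 45.4% and 63.5% in RPR2 tumours. Both shares separated the models without overlap, RPR2 replicate 3 included. They were looked at after the calls of these genes were known and carry no test.

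**Figure D2:**
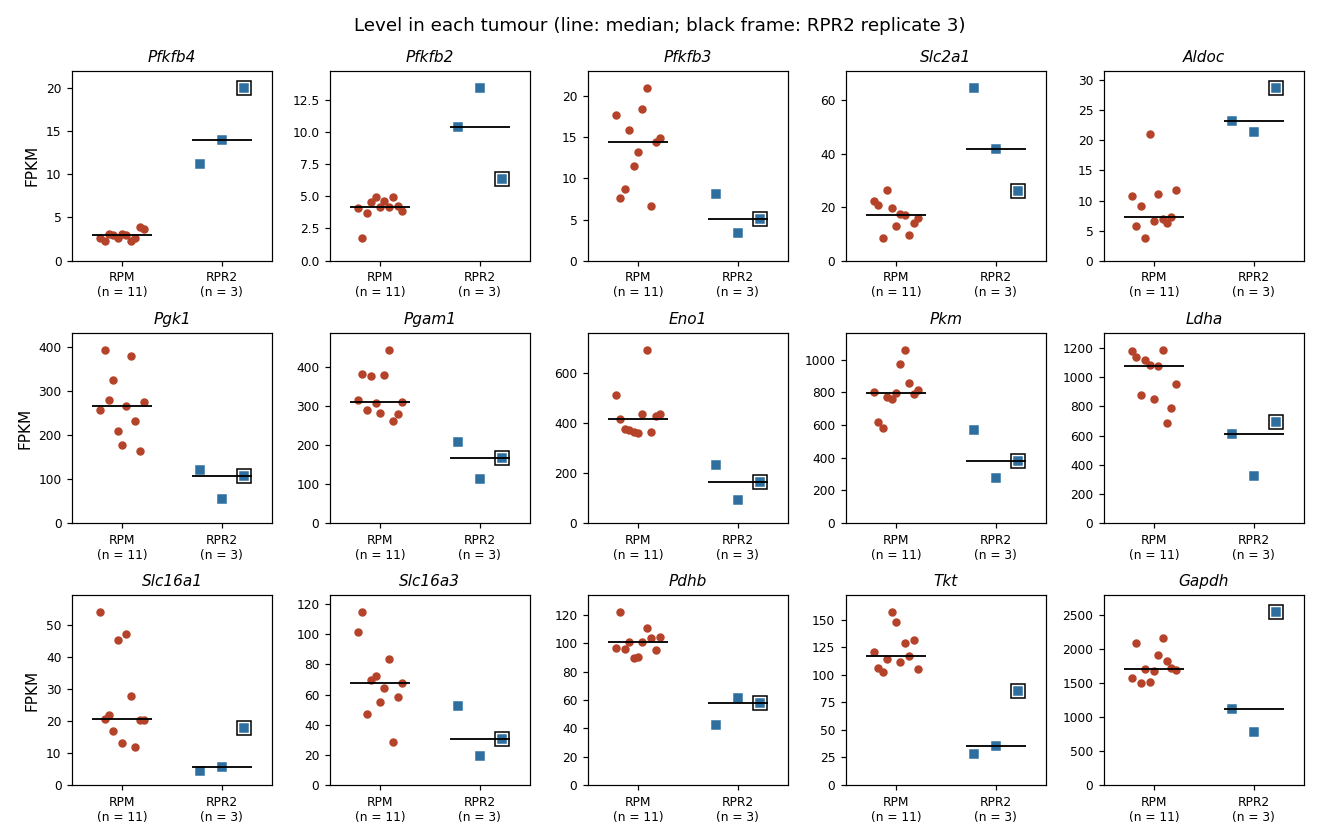
Level in each RPM (left, n = 11, red points) and RPR2 tumour (right, n = 3, blue squares) of 15 of the genes, in FPKM on linear axes from 0, with a line at the median and a black frame around RPR2 replicate 3. Pfkfb4, Pfkfb2 and Aldoc lie lower in all RPM tumours, Pgk1, Pgam1, Eno1, Pkm, Pdhb and Tkt higher in all, and the other genes overlap, Gapdh through RPR2 replicate 3 at 2544 FPKM.

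Of the 2 glucose transporters measured, the broadly expressed Slc2a1 (GLUT1) was lower in RPM tumours, and Slc2a3 (GLUT3, the high-affinity form of neurons) varied widely in both models. Slc2a1 levels were 8.47, 17.2 and 26.3 FPKM in RPM tumours, against 64.6, 42.0 and 26.0 FPKM in RPR2 tumours. The groups touched only where the highest RPM tumour passed RPR2 replicate 3. The log2 difference was -1.31 (SE 0.307, limma, Benjamini-Hochberg adjusted p = 0.00331), and Slc2a1 was called under every alternative tried, with -1.64 without RPR2 replicate 3. Slc2a3 stood at 1.44, 5.84 and 21.1 FPKM in RPM tumours, against 0.33, 0.81 and 16.5 FPKM in RPR2 tumours. RPR2 replicates 1 and 2 lay below all RPM tumours and RPR2 replicate 3 near their top, and the difference of 0.94 did not pass (SE 0.680, limma, Benjamini-Hochberg adjusted p = 0.288). Without RPR2 replicate 3 the difference was 2.11 (adjusted p = 0.0094).

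From hexokinase to aldolase, 6 of 8 genes did not pass the test. Hexokinases trap glucose by phosphorylation. Hk1, the general form, stood at 17.3, 35.99 and 45.7 FPKM in RPM tumours, against 61.5, 56.0 and 19.8 FPKM in RPR2 tumours. Hk2, the insulin-responsive form that many tumours use, stood at 4.13, 15.2 and 46.8 FPKM in RPM tumours, against 5.07, 3.43 and 34.8 FPKM in RPR2 tumours. RPR2 replicate 3 lay apart from the other 2 RPR2 tumours, low for Hk1 and high for Hk2. Hk2 was called without that library (log2 difference 1.75, limma, Benjamini-Hochberg adjusted p = 0.0401) but not with it (0.83, adjusted p = 0.336), and Hk1 was called in neither case (-0.89, adjusted p = 0.0514 without it).

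Gpi1, which interconverts glucose 6-phosphate and fructose 6-phosphate, was higher, with 197, 287 and 463 FPKM in RPM tumours against 209, 117 and 207 FPKM in RPR2 tumours (log2 difference 0.77, SE 0.236, limma, Benjamini-Hochberg adjusted p = 0.0164). The groups overlapped at their edges, and the call held without RPR2 replicate 3 (0.91) and was lost without RPR2 replicate 2 (adjusted p = 0.152). It was also lost under TPM scaling (adjusted p = 0.0948) and quantile normalization (adjusted p = 0.0886). The 3 phosphofructokinase genes Pfkl, Pfkm and Pfkp, named for liver, muscle and platelets, had log2 differences of -0.10, -0.01 and 0.24, none past the threshold with or without RPR2 replicate 3, where that of Pfkl was 0.13. Pfkl stood at 35.9 to 66.8 FPKM in RPM tumours and 34.3 to 70.0 FPKM in RPR2 tumours, and Pfkp at 37.9 to 90.8 FPKM in RPM tumours and 36.5 to 72.1 FPKM in RPR2 tumours. Pfkm was the lowest of the 3 in every tumour, at 3.75 to 25.7 FPKM in RPM tumours and 9.52 to 14.1 FPKM in RPR2 tumours.

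The aldolases, which split fructose 1,6-bisphosphate, were unequal in level and in difference. Aldoa, the muscle and general form, stood at 427, 560 and 865 FPKM in RPM tumours, against 627, 329 and 908 FPKM in RPR2 tumours, with a log2 difference of 0.03 (SE 0.271), and 0.36 without RPR2 replicate 3, neither past the threshold. Aldoc, the form known from brain, stood at 3.78, 7.23 and 21.01 FPKM in RPM tumours, against 23.3, 21.4 and 28.7 FPKM in RPR2 tumours. All RPM tumours were below all RPR2 tumours, RPM replicate 5 only just. Aldoc fell by 1.44 on the log2 scale (SE 0.335, limma with Benjamini-Hochberg adjusted p = 0.00326) and by 1.32 without RPR2 replicate 3 (adjusted p = 0.0153).

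Lower glycolysis, where ATP is regained, held the largest number of rises. Tpi1, which interconverts the triose phosphates, stood at 388 to 664 FPKM in RPM tumours and 487, 247 and 546 FPKM in RPR2 tumours. It and Gapdh, the NAD+-dependent dehydrogenase that is often taken as a reference gene, did not pass. Gapdh was the highest of the 36 genes in every library, at 1506, 1712 and 2168 FPKM in RPM tumours, against 1125, 781 and 2544 FPKM in RPR2 tumours. RPR2 replicates 1 and 2 lay below every RPM tumour and RPR2 replicate 3 above every one, and Gapdh was called only without RPR2 replicate 3 and with array weights (log2 difference 0.42 with all libraries, 0.90 and limma Benjamini-Hochberg adjusted p = 0.00242 without RPR2 replicate 3).

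Pgk1 (chromosome X, 106187100 to 106203699, plus strand), the first ATP-making enzyme of the pathway, stood at 163, 266 and 393 FPKM in RPM tumours, against 120, 53.5 and 107 FPKM in RPR2 tumours. It rose by 1.55 on the log2 scale (SE 0.278, limma with Benjamini-Hochberg adjusted p = 0.000468), with no overlap. Pgam1 (chromosome 19, 41911923 to 41918660, plus strand), phosphoglycerate mutase, stood at 262, 311 and 444 FPKM in RPM tumours, against 207, 112 and 168 FPKM in RPR2 tumours, and rose by 1.05 (SE 0.193, adjusted p = 0.000578). Pkm (chromosome 9, 59656368 to 59679375, plus strand), pyruvate kinase of muscle and most tumours, stood at 584, 797 and 1058 FPKM in RPM tumours, against 569, 277 and 382 FPKM in RPR2 tumours, and rose by 1.01 (SE 0.214, adjusted p = 0.00169). Without RPR2 replicate 3 all 3 were still called, with differences of 1.69 for Pgk1, 1.09 for Pgam1 and 0.99 for Pkm. The gap in Pkm was narrow, between the lowest RPM tumour and RPR2 replicate 1, and a single value for the whole gene cannot separate its M1 and M2 splice forms. Bpgm, which makes 2,3-bisphosphoglycerate and is best known from red blood cells, stood at 20.9, 27.9 and 54.2 FPKM in RPM tumours, against 39.8, 32.4 and 7 FPKM in RPR2 tumours, and did not pass. Its log2 difference was 0.45 with all libraries and -0.29 without RPR2 replicate 3, where it did not pass either. Of 8 erythroid markers 7 were found and none was called higher or lower, and their summed level was 25.3 to 262 FPKM in RPM tumours and 160, 128 and 84.2 FPKM in RPR2 tumours. The part of blood in Bpgm was not tested.

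Eno1 (chromosome 4, 150236721 to 150248879, plus strand), the general enolase, stood at 362, 417 and 692 FPKM in RPM tumours, against 233, 89.9 and 165 FPKM in RPR2 tumours. No RPM tumour was as low as any RPR2 tumour, and Eno1 rose by 1.48 on the log2 scale (SE 0.245, limma with Benjamini-Hochberg adjusted p = 0.000237), and by 1.55 without RPR2 replicate 3. Eno2, the neuronal enolase used as a marker of neuroendocrine tumours, stood at 4.33, 8.02 and 18.4 FPKM in RPM tumours, against 12.3, 15.3 and 0.68 FPKM in RPR2 tumours. RPR2 replicate 3, the library almost without neuroendocrine markers, had the lowest Eno2 of all 14, and the log2 difference was 0.36 with it (adjusted p = 0.632) and -0.68 without it (adjusted p = 0.185).

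The value of Eno1 depends on how reads were divided between it and Eno1b, a gene on chromosome 18 whose transcript is almost the same. Over 1652 aligned bases the transcripts differed at 9, an identity of 99.5%, and 70.5% of the 50-base stretches of Eno1 also occurred in Eno1b.

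Eno1b stood at 311, 630 and 849.5 FPKM in RPM tumours, against 473, 175 and 238 FPKM in RPR2 tumours, above Eno1 itself in all but 4 libraries. The sum of both was 675, 1047 and 1289 FPKM in RPM tumours, against 706, 265 and 403 FPKM in RPR2 tumours. On the sum, RPR2 replicate 1 lay above the lowest RPM tumour, whereas on Eno1 alone the groups did not overlap. The log2 difference was 1.48 for Eno1 alone and 1.26 with Eno1b added (limma, Benjamini-Hochberg adjusted p = 0.0016), and 1.11 with the pseudogene Gm4735 added too (adjusted p = 0.00544). The rise was therefore called for each of these sums. Pgk1 behaved likewise. Its pseudogenes Pgk1-rs7 and Gm5537 share 67.9% and 67.7% of its 50-base stretches, its copies together stood at 75.7 to 292 FPKM in RPM tumours and 205, 86.5 and 77.1 FPKM in RPR2 tumours, and with them added the difference was 1.08 (adjusted p = 0.00297). Gapdh shares 82.5% of its stretches with other rows, 66 of which are copies, but these held only 9.88 to 19.4 FPKM in RPM tumours and 114.6, 24.3 and 23.0 FPKM in RPR2 tumours. Pgam1-ps2 was listed at 0 in all RPM tumours and at 22.6, 5.52 and 0 FPKM in RPR2 tumours. With copies added Pgam1 had a difference of 0.98 (adjusted p = 0.0012) and Gpi1 of 0.71 (adjusted p = 0.024).

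**Figure D3:**
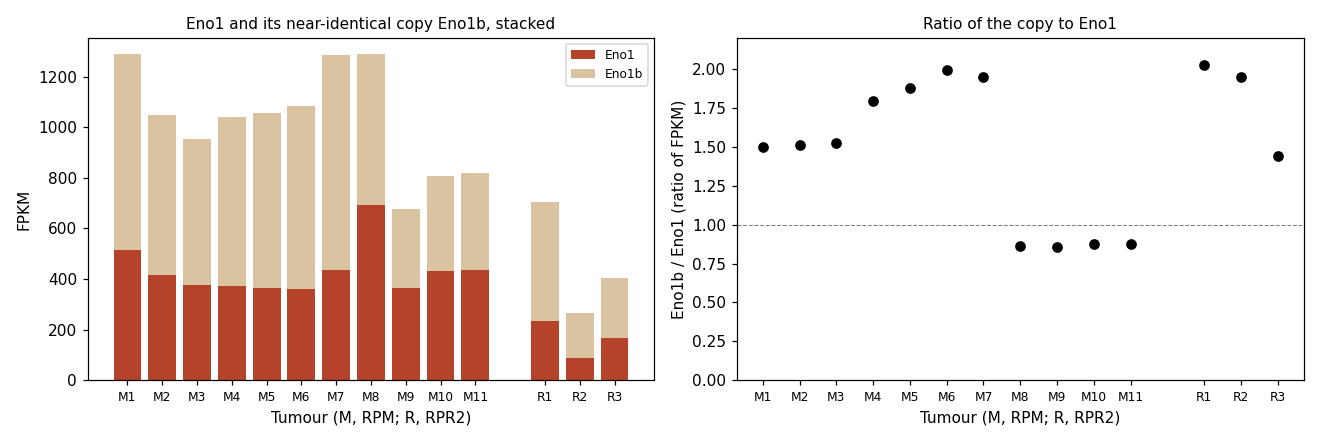
Eno1 and Eno1b in each tumour (M, RPM, left; R, RPR2, right; the number is the replicate), as stacked FPKM in the left panel and as the ratio of Eno1b to Eno1 in the right panel, with a dashed line at 1. The stacked sums are 675 to 1289 FPKM in RPM tumours and 265 to 706 FPKM in RPR2 tumours, and the ratio is below 1 in RPM replicates 8 to 11 only.

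Lactate genes rose in 3 of 4 cases. Ldha (chromosome 7, 46841475 to 46855627, plus strand), the lactate dehydrogenase subunit that favours making lactate, stood at 687, 1075 and 1187 FPKM in RPM tumours, against 610, 325 and 691 FPKM in RPR2 tumours. The lowest RPM tumour and RPR2 replicate 3 were nearly level, which was the only overlap. Ldha rose by 0.93 on the log2 scale (SE 0.234, limma with Benjamini-Hochberg adjusted p = 0.00557), a call that held without RPR2 replicate 3 (1.14) and was lost without RPR2 replicate 2 (0.59, adjusted p = 0.0668) and under quantile normalization (0.24, adjusted p = 0.444). Slc16a1 (MCT1), which carries lactate either way across the membrane, stood at 11.8, 20.6 and 53.9 FPKM in RPM tumours, against 4.36, 5.50 and 17.7 FPKM in RPR2 tumours. It rose by 1.54 (SE 0.453, adjusted p = 0.0138), and by 2.09 without RPR2 replicate 3 (adjusted p = 0.00273), but was not called without RPR2 replicate 1 (adjusted p = 0.0957) or RPR2 replicate 2 (0.0787). Slc16a3 (MCT4), the exporter of strongly glycolytic cells, stood at 28.4, 67.6 and 114 FPKM in RPM tumours, against 52.5, 19.4 and 30.2 FPKM in RPR2 tumours. It rose by 1.03 (SE 0.341, adjusted p = 0.0248) and was not called without RPR2 replicate 3 (1.01, adjusted p = 0.0612) or RPR2 replicate 2 (0.70, adjusted p = 0.182), nor under TPM scaling (adjusted p = 0.0542).

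Ldhb, the subunit that favours using lactate, did not pass. Its levels were 5.08, 10.7 and 83.9 FPKM in RPM tumours, against 10.6, 27.6 and 52.1 FPKM in RPR2 tumours, with a log2 difference of -0.87, and of -0.36 without RPR2 replicate 3. Bsg, the chaperone that MCT1 and MCT4 need at the cell surface, did not share the direction of its partners. It stood at 283, 402 and 597 FPKM in RPM tumours, against 679, 571 and 845 FPKM in RPR2 tumours, and fell by 0.78 on the log2 scale (limma with Benjamini-Hochberg adjusted p = 0.00849), and by 0.63 without RPR2 replicate 3.

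Promoters of 4 of the PFKFB and lactate genes are shown because they hold the letters CACGTG, the canonical E-box to which Myc with its partner Max is known to bind. Each window runs from 250 bases before to 50 bases after a RefSeq transcription start on GRCm38.p6, and is written on the strand of the gene with every CACGTG in capitals. The Ldha window is chr7:46845554-46845853 (plus strand), with the motif 145 and 48 bases before the start. The Slc16a1 window is chr3:104638414-104638713 (plus strand), with the motif 200 bases before the start. The Pfkfb3 window is chr2:11502041-11502340 (minus strand), with the motif 53 bases before the start, and the Pfkfb2 window is chr1:130715772-130716071 (minus strand), with the motif 22 bases before the start.
Ldha: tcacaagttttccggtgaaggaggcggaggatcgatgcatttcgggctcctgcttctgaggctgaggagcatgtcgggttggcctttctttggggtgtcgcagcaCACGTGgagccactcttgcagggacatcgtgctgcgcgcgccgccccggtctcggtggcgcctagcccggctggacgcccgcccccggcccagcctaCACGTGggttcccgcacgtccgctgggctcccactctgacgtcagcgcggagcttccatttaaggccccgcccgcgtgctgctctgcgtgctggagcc
Slc16a1: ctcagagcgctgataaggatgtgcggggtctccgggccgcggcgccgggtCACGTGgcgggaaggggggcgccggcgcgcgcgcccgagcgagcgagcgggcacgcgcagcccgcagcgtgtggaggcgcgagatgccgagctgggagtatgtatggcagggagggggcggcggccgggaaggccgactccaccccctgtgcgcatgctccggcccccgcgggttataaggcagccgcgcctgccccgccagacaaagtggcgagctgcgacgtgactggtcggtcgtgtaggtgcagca
Pfkfb3: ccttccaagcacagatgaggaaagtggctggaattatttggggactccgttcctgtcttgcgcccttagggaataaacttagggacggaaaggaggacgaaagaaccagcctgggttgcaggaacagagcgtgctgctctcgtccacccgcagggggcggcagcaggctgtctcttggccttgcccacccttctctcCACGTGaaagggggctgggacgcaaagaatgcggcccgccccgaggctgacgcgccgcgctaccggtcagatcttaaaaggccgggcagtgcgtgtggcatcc
Pfkfb2: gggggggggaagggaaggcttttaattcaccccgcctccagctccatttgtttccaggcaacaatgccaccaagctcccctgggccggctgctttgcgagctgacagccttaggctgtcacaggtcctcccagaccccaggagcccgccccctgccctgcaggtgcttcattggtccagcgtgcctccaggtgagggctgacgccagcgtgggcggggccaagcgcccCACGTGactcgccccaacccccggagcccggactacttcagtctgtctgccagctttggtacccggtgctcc

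Ldha, Slc16a1 and Pfkfb3 rose in RPM tumours while Pfkfb2 fell, and the motif stood in front of genes of both directions. CACGTG, which reads the same on both strands, was found in at least 1 window of 6 of the 35 genes with a window (17.1%), the other 2 being Pfkm and Pdk2, and in 8.09% of all 27025 genes with windows of this length. It was found in 3 of 12 genes called higher, 1 of 5 called lower and 2 of 18 not called. Counted by windows, 11.5% of 52 windows of these genes and 7.15% of all windows held it. ACGTG and GCGTG, the core letters of hypoxia response elements, searched on both strands and with ACGTG also contained in CACGTG, were found in 54.3% and 68.6% of the 35 genes and in 21.8% and 35.2% of all genes. Counted by windows, they were found in 44.2% and 57.7% of the 52 windows and in 19.6% and 32.4% of all windows. The 52 windows were richer in G and C, with a median of 60.8% against 52.7% in all windows. With the richest window of each gene, the median was 62.3% in the 35 genes and 53.3% in all genes. The part of base composition, or of the number of windows per gene, in these shares was not tested.

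Where pyruvate enters mitochondria, the pyruvate dehydrogenase complex and its inhibitory kinases were called in both directions. Pdhb (chromosome 14, 8165996 to 8173025, minus strand), the beta subunit of the E1 enzyme, was the steadiest of the 36 genes among RPM tumours, with a coefficient of variation of 9.17%. It stood at 89.9, 101 and 122 FPKM in RPM tumours, against 42.1, 61.3 and 57.6 FPKM in RPR2 tumours. All RPM tumours were above all RPR2 tumours, and Pdhb rose by 0.91 on the log2 scale (SE 0.131, limma with Benjamini-Hochberg adjusted p = 7.35e-05), and by 0.97 without RPR2 replicate 3. The E1 alpha subunit Pdha1 and the E2 subunit Dlat did not pass, with differences of 0.46 (adjusted p = 0.181) and 0.47 (adjusted p = 0.112). Pdha1 stood at 32.2 to 84.0 FPKM in RPM tumours and 33.2, 38.9 and 30.0 FPKM in RPR2 tumours, and Dlat at 22.1 to 51.0 FPKM in RPM tumours and 31.5, 28.8 and 19.0 FPKM in RPR2 tumours. Of 8 further tested genes of this complex and of pyruvate import, 3 were higher and none lower, with a median difference of 0.40. They were Pdhx, the E3-binding protein (0.68), Dld, the E3 enzyme (0.74), and Pdp2, a phosphatase that activates the complex (0.79). All 3 calls were lost under TPM scaling.

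PDH kinases switch the complex off. Pdk1, the form induced by hypoxia, stood at 22.5, 32.1 and 56.1 FPKM in RPM tumours, against 28.4, 13.6 and 18.9 FPKM in RPR2 tumours, and rose by 0.74 on the log2 scale (SE 0.286, limma with Benjamini-Hochberg adjusted p = 0.0489). Pdk3 stood at 7.69, 12.6 and 19.6 FPKM in RPM tumours, against 23.3, 21.4 and 15.6 FPKM in RPR2 tumours, and fell by 0.60 (SE 0.229, adjusted p = 0.0486). Without RPR2 replicate 3, Pdk1 was not called (0.72, adjusted p = 0.102) and Pdk3 was (-0.76, adjusted p = 0.0283). Both calls lay at the edge of the threshold, and that of Pdk1 was lost in 11 and that of Pdk3 in 15 of 25 alternatives, among them the fits without RPR2 replicate 2 (adjusted p = 0.266 and 0.157). Pdk2 did not pass (difference -0.89, adjusted p = 0.066), with 3.48 to 9.17 FPKM in RPM tumours against 4.69, 11.8 and 22.8 FPKM in RPR2 tumours. Leaving out RPR2 replicate 1 brought Pdk2 past the threshold (-1.43, adjusted p = 0.00738 by limma with Benjamini-Hochberg), as did TPM scaling and array weights, and it differed by -0.40 without RPR2 replicate 3. Pdk4, the form of fasting muscle and heart, was the most variable of the 36 genes among RPM tumours and stood at 0.26, 0.74 and 7.29 FPKM, against 0.27, 0.65 and 0.43 FPKM in RPR2 tumours. The highest value was in RPM replicate 3, where 9 muscle markers summed to 241 FPKM and 3 adipocyte markers to 230 FPKM, each the highest of all libraries. Elsewhere the muscle sum was 5.02 to 150 FPKM in RPM tumours and 9.10, 16.4 and 87.4 FPKM in RPR2 tumours. The adipocyte sum elsewhere was 23.8 to 207 FPKM in RPM tumours and 8.48, 10.96 and 25.8 FPKM in RPR2 tumours. RPM replicate 2 came next in both sums, at 150 and 207 FPKM, but held 0.88 FPKM of Pdk4. RPM replicate 1, next in Pdk4 at 3.77 FPKM, had sums of 27.9 and 59.9 FPKM. Fabp4 alone made up 225 FPKM of the adipocyte sum in RPM replicate 3. The part of muscle or fat in Pdk4 was not tested.

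In the pentose phosphate branch 1 of 4 genes passed. Tkt (chromosome 14, 30548359 to 30574720, plus strand), transketolase of the non-oxidative arm, stood at 103, 117 and 157 FPKM in RPM tumours, against 28.5, 35.8 and 85.4 FPKM in RPR2 tumours. No values overlapped, and RPR2 replicate 3 was well above the other RPR2 tumours. Tkt rose by 1.42 on the log2 scale (SE 0.238, limma with Benjamini-Hochberg adjusted p = 0.000266), and by 1.89 without RPR2 replicate 3 (adjusted p = 1.88e-06). The oxidative, NADPH-making enzymes G6pdx and Pgd had differences of 0.02 (adjusted p = 0.951) and -0.35 (adjusted p = 0.39), and that of Pgd was 0.05 without RPR2 replicate 3 (adjusted p = 0.915). G6pdx stood at 15.6 to 28.1 FPKM in RPM tumours and 18.6, 17.9 and 26.3 FPKM in RPR2 tumours, and Pgd at 19.4 to 61.2 FPKM in RPM tumours and 33.9, 35.2 and 81.1 FPKM in RPR2 tumours. Taldo1, transaldolase, had a difference of -0.28 (adjusted p = 0.228), with 56.7, 83.6 and 116 FPKM in RPM tumours against 109, 103 and 86.8 FPKM in RPR2 tumours. Of 6 further tested genes of this branch 1 was higher, Tigar, a phosphatase that lowers fructose 2,6-bisphosphate (1.15, adjusted p = 0.00088), and 3 were lower. Those were H6pd, the glucose 6-phosphate dehydrogenase of the endoplasmic reticulum (-1.65), Rpia, ribose 5-phosphate isomerase (-0.72), and Shpk, sedoheptulokinase (-0.84).

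Isoform use within a step was compared as the log2 ratio of both genes in the same tumour, with 1 added to each FPKM, which depends little on scaling between libraries. Over 8 ratios, 2-sided exact permutation tests used all 364 ways to choose 3 of the 14 libraries, with a smallest possible p of 0.00275 and Benjamini-Hochberg adjustment over the 8. None passed, and in each the models overlapped. The lowest p were for Aldoc over Aldoa (difference of -1.47, RPM minus RPR2, exact permutation p = 0.011, adjusted p = 0.0733), Ldhb over Ldha (-1.79, p = 0.0192, adjusted p = 0.0733) and Slc2a3 over Slc2a1 (2.26, p = 0.0275, adjusted p = 0.0733). Hk2 over Hk1 differed by 1.21 (exact permutation adjusted p = 0.355), Eno2 over Eno1 by -1.13 (0.253), Slc16a3 over Slc16a1 by -0.50 (0.386), Pfkp over Pfkl by 0.34 (0.338) and Pfkm over Pfkl by 0.09 (0.874).

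RPR2 replicate 3 decided several of these ratios. In RPM tumours Hk2 made up 8.29% to 68.1% of both hexokinases with a median of 39.1%, and in RPR2 tumours 7.62%, 5.77% and 63.8%. Slc2a3 made up 13.01% to 44.6% of both glucose transporters in RPM tumours, against 0.508%, 1.89% and 38.9% in RPR2 tumours. Eno2 made up 0.983% to 4.72% of Eno1 and Eno2 in RPM tumours, against 4.99%, 14.5% and 0.41% in RPR2 tumours. Without RPR2 replicate 3, where 78 such choices remained, the differences in Slc2a3 over Slc2a1 (3.75), Hk2 over Hk1 (2.64) and Eno2 over Eno1 (-2.23) all reached the smallest exact permutation p of 0.0128, adjusted p = 0.0342 over the 8. A ratio alone at that smallest p could not have passed, so these calls rest on the tie of all 3. Without RPR2 replicate 1, Ldhb over Ldha also reached it, with an exact permutation adjusted p of 0.103. When each of the 14 libraries was left out in turn, Aldoc over Aldoa passed in 1 fit, that without RPM replicate 5 (-1.60, exact permutation adjusted p = 0.028), the RPM tumour with the most Aldoc. In the other 13 fits its exact permutation adjusted p was 0.0513 to 0.256. Where an RPR2 library was left out, it could not have passed on its own.

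**Figure D4:**
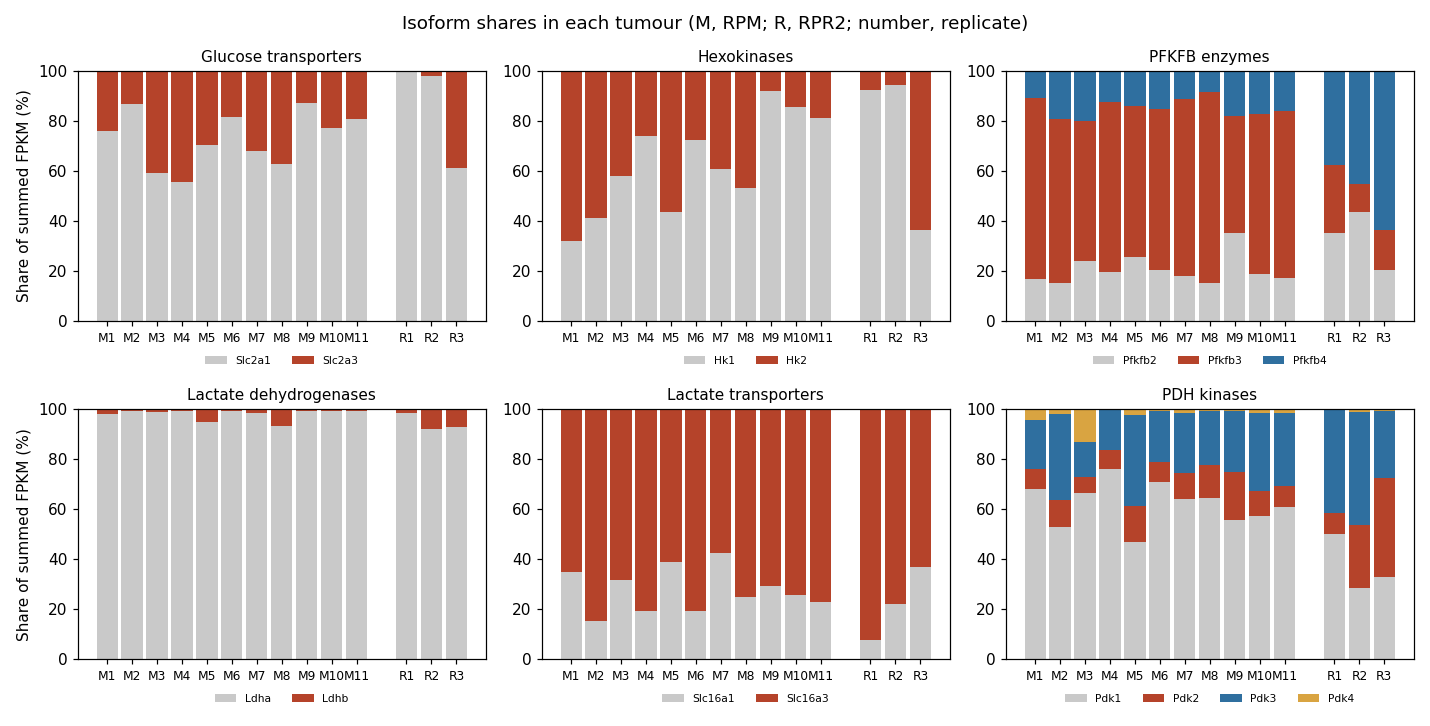
Share of each isoform in the summed FPKM of its step in each tumour (M, RPM, left; R, RPR2, right; the number is the replicate), for glucose transporters, hexokinases, PFKFB enzymes, lactate dehydrogenases, lactate transporters and PDH kinases. The Pfkfb3 and Pfkfb4 shares do not overlap between the models, the Hk2 share runs from 8.29% to 68.1% among RPM tumours, and R3 stands apart from R1 and R2 for glucose transporters and hexokinases.

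In the plot of isoform shares, 3 of 6 steps had the same major form in every tumour, Slc2a1, Ldha and Slc16a3. Ldha made up 93.4% to 99.4% of both lactate dehydrogenases in RPM tumours, against 98.3%, 92.2% and 93.0% in RPR2 tumours, and Aldoa at least 96.1% of both aldolases in RPM tumours and 93.9% in RPR2 tumours. Slc16a3 made up 57.6% to 84.8% of Slc16a1 and Slc16a3 together in RPM tumours, against 92.3%, 77.9% and 63.1% in RPR2 tumours. Slc16a7, a further lactate transporter, was left out of this share. It stood at 1.24, 2.49 and 5.25 FPKM in RPM tumours, against 11.2, 9.19 and 5.00 FPKM in RPR2 tumours. In RPR2 replicates 1 and 2 it lay above Slc16a1, which stood there at 4.36 and 5.50 FPKM. Pdk1 was the largest of the 4 kinases in each RPM tumour, with 46.8% to 75.9%, against 50.2%, 28.6% and 32.7% in RPR2 tumours.

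Among the 11 RPM tumours the 36 genes ranged from steady to very variable. Coefficients of variation were 136% for Pdk4, 122% for Ldhb, 78.2% for Slc2a3, 65.8% for Hk2 and 55.5% for Pfkm, and 9.17% for Pdhb, 12.4% for Gapdh and 14.3% for Tkt. Copies of the Myc allele were compared within RPM, LSL/LSL (n = 9) against LSL/+ (n = 2). None of the 36 genes was called by limma, with a lowest Benjamini-Hochberg adjusted p of 0.265, and 2, Aldoc and Pgd, had an unadjusted p under 0.05. Of all 14862 tested genes 0.00673% were called, a single gene, 17.3% had an unadjusted p under 0.05, and 9.36% did not overlap. Aldoc, the 1 gene of the 36 with no overlap, averaged 10.1 ± 4.59 FPKM in LSL/LSL tumours (SD, n = 9) and stood at 5.71 and 3.78 FPKM in the LSL/+ tumours, a log2 difference of 0.88. Pgd averaged 40.6 ± 10.9 FPKM in LSL/LSL tumours (SD, n = 9) and stood at 28.3 and 19.4 FPKM in the LSL/+ tumours, a log2 difference of 0.72, with overlap.

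Genes around the pathway were counted in further lists from the same limma fit. Of 11 tested minor isoforms, 1 was higher and 2 were lower, with a median difference of 0.11. Adpgk, an ADP-dependent glucokinase, rose by 1.198 (Benjamini-Hochberg adjusted p = 4.06e-05), with 17.5, 19.8 and 29.9 FPKM in RPM tumours against 10.1, 8.59 and 7.04 FPKM in RPR2 tumours. Slc16a7 (MCT2), a high-affinity lactate and pyruvate transporter, fell by 1.34, and Ldhd, the D-lactate dehydrogenase of mitochondria, fell by 1.499.

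Of 13 tested genes of gluconeogenesis and glycogen metabolism, none was higher and 6 were lower, with a median difference of -1.05. Pygl, the liver form of glycogen phosphorylase, which releases glucose units from glycogen, stood at 0.73, 1.54 and 3.58 FPKM in RPM tumours, against 43.5, 55.8 and 43.5 FPKM in RPR2 tumours. All RPM tumours were below all RPR2 tumours, and RPR2 replicate 3 was at the level of RPR2 replicate 1. Pygl fell by 4.23 (limma with Benjamini-Hochberg adjusted p = 7.04e-08). Pgm1, which links glycogen to glucose 6-phosphate, fell by 1.75, with 6.75, 8.65 and 14.9 FPKM in RPM tumours against 32.4, 21.7 and 53.8 FPKM in RPR2 tumours. Pck2, the mitochondrial phosphoenolpyruvate carboxykinase, fell by 1.57, Ugp2, which makes UDP-glucose, by 1.19, the glycogen branching enzyme Gbe1 by 1.05, and Fbp1, fructose bisphosphatase of gluconeogenesis, by 3.31.

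Of 13 regulators, 1 was higher and 6 were lower, with a median difference of -0.78. Txnip, a glucose-induced arrestin that lowers glucose uptake, stood at 18.6, 50.1 and 98.0 FPKM in RPM tumours, against 271, 408 and 405 FPKM in RPR2 tumours, and fell by 3.01 (limma with Benjamini-Hochberg adjusted p = 2.62e-05). Its relative Arrdc4 fell by 1.33. Epas1, which encodes HIF-2 alpha, fell by 2.27, and Arnt, the shared partner of the hypoxia-inducible factors, fell by 0.997. Egln3, a hydroxylase that marks these factors for degradation and is itself induced by them, fell by 1.42. Ppargc1a, a coactivator of mitochondrial genes, rose by 1.77, with 1.67, 6.55 and 16.0 FPKM in RPM tumours against 1.48, 0.70 and 1.07 FPKM in RPR2 tumours.

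Of 15 genes known to be induced by hypoxia that lie outside glycolysis, 1 was higher and 6 were lower, with a median difference of -0.55. Mxi1, an antagonist of Myc, rose by 1.45, with 18.4, 35.4 and 73.6 FPKM in RPM tumours against 14.6, 11.4 and 11.3 FPKM in RPR2 tumours. Bhlhe40, a transcriptional repressor, fell by 2.22, Ndrg1 by 1.17, Ankrd37 by 1.11, P4ha2, a collagen prolyl hydroxylase, by 1.07, Vegfa, the angiogenic growth factor, by 0.99, and Kdm3a, a histone demethylase, by 0.60. The background for all these counts is the same 18.4% of tested genes called higher and 22.8% called lower. Without RPR2 replicate 3 the genes called in either direction were 3 minor isoforms, 2 of pyruvate dehydrogenase and import, 5 of the pentose phosphate branch, 7 of gluconeogenesis and glycogen, 9 regulators and 6 induced by hypoxia, against 3, 3, 4, 6, 7 and 7 with it. The calls lost were those of Pdp2 (limma, Benjamini-Hochberg adjusted p = 0.0729) and Ankrd37 (adjusted p = 0.132). Pgls (log2 difference 0.94), Pgm2 (-1.35), Hif1a (-1.12) and Mlxipl (-2.08) gained a call. Pygl then differed by -4.29, Fbp1 by -3.78 and Txnip by -2.92.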

How the data were processed

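Gene expression was measured by RNA-seq in 11 RPM and 3 RPR2 tumours, and groups were taken from the genotype labels. The authors deposited 1 table of FPKM values per gene and library, with 46517 gene rows and 1 further row that names no mouse gene and is 0 in all 14 libraries, which was left out. Bowtie 1.0.1, RSEM 1.2.12 and the mm10 build are listed in the submitters' processing notes. Which annotation release and which strand setting they used is not given in the sources used here. Reads that fit several near-identical genes are divided among them by RSEM, so such values depend on that division. All 14 columns were matched to samples by title.

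GENCODE on GRCm38 gave symbols and coordinates, and RefSeq on GRCm38.p6 gave promoters. Values were analysed as log2(FPKM + 1), with a pseudocount of 1, so fold changes of low genes are understated. A gene entered the test where 3 or more libraries reached an FPKM of 1. The test was limma's moderated linear model with a mean-variance trend (limma 3.58.1, R 4.3.3), 2-sided, with Benjamini-Hochberg adjustment over all genes that entered and a threshold of 0.05. The fit was tested on simulated data. Isoform ratios were compared by exact permutation in Python 3.11.15. The deposited table holds no read counts, so no count model was fitted. Depths are estimates, and 3 reads on a transcript of 2 kb correspond to 0.0749 to 0.0853 FPKM in RPM and 0.0659 to 0.0702 FPKM in RPR2 libraries, counting error only. Copies were found as rows whose transcripts share stretches of 50 bases with a member, at least 10% of its stretches.

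All 36 genes are named. Some other genes are not reported here and stay in the counts and adjustments. Of the further lists, up to 3 called genes per direction with the smallest p are named, and every gene where a direction holds 5 or fewer; the others named were chosen after their values were seen. The 36 genes and all lists were chosen with earlier results of these data known. In all, 25 alternatives were run, 14 of them without 1 library each, and the addition of copies that share sequence was chosen after seeing the data.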

Additional observations from a re-analysis of the deposited data

Results flagged for a closer look

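Among the 9 LSL/LSL RPM tumours, RPM replicate 5 stood apart in 2 of the 36 genes by Dixon's ratio, the gap to the nearest tumour over the whole range on the log2(FPKM + 1) scale, which has a 95% critical value of 0.493 for 9 samples. Aldoc was at 21.01 FPKM in RPM replicate 5, against 6.30 to 11.7 FPKM in the other LSL/LSL tumours, a ratio of 0.497. Bpgm was at 54.2 FPKM there, against 20.9 to 33.1 FPKM in the others, a ratio of 0.519. The 36 genes were each examined once in this way, and chance alone marks about 1 in 20. RPM replicate 5 also had the lowest summed neuroendocrine markers of the RPM tumours, 231 FPKM against up to 1308 FPKM. Its summed airway markers were the highest of the RPM tumours, 1526 FPKM, of which Scgb1a1 alone made up 1352 FPKM. It was highest of the RPM tumours in Scgb1a1 and Scgb3a2, but RPM replicate 10 was higher in Cyp2f2 (30.0 against 23.4 FPKM) and Foxj1 (6.12 against 4.57 FPKM). RPM replicate 11 had nearly as much of the airway markers, 1422 FPKM, with 11.7 FPKM of Aldoc and 29.6 FPKM of Bpgm. The part of these other markers in Aldoc and Bpgm was not tested. Aldoc was called lower in RPM with and without this tumour.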

How the results depend on the processing

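Of the 17 called genes, 9 (Slc2a1, Aldoc, Pgk1, Pgam1, Eno1, Pdhb, Pfkfb2, Pfkfb4 and Tkt) were called under all 25 alternatives, and 8 (Gpi1, Pkm, Ldha, Slc16a1, Slc16a3, Pdk1, Pdk3 and Pfkfb3) lost their call in at least 1. Of the 19 others, 13 were called in at least 1 alternative, 8 of them only with array weights, and 6 in none. Of 899 gene values, 808 kept direction and side of the threshold, 32 of 9 genes changed sign without a call in either fit, 38 lost the call, 19 gained one and 2 changed sign and were called, Pfkl (0.43, limma Benjamini-Hochberg adjusted p = 0.022) and Eno2 (-0.72, adjusted p = 0.0285), both with array weights. Array weights gave 21 genes higher and 9 lower of the 36, 4290 of all genes higher (27.3%) and 6577 lower (41.8%), and 12 called in gluconeogenesis and glycogen. Pkm was lost only under quantile normalization (0.44, adjusted p = 0.302). With libraries that share a title number averaged, 11 of the 36 genes were higher and 4 lower, beside 17.2% and 21.3% of all tested genes. Pdk1 (limma, Benjamini-Hochberg adjusted p = 0.0546) and Pdk3 (adjusted p = 0.0659) lost their calls there. Of the 36 genes, TPM scaling called 9 higher and 6 lower, quantile normalization 10 and 4, and median-of-ratios scaling 13 and 4, against 12 and 5. Their median difference was then 0.24, 0.34 and 0.56, against 0.43. The FPKM of all genes summed to 599119 to 939971 in RPM libraries and to 523529, 545461 and 825292 in RPR2 libraries. TPM scaling gave 1857 of all genes higher and 3710 lower and 0 called in pyruvate dehydrogenase and import, a filter at a mean FPKM of 5 gave 2171 lower, and no filter gave 5 minor isoforms. Median-of-ratios scaling gave 3363 higher and 3229 lower and quantile normalization 3657 and 3066, against 2897 and 3586. The median difference of all genes was -0.23 under TPM scaling, against -0.06. With 1 library left out, the 36 genes had 6 to 13 called higher and 4 to 5 lower, and all genes 2276 to 3033 higher and 2360 to 4227 lower. Ratio differences then ran from -1.68 to -1.15 for Aldoc over Aldoa, -2.23 to -0.16 for Eno2 over Eno1, 0.41 to 2.64 for Hk2 over Hk1 and 1.25 to 3.75 for Slc2a3 over Slc2a1. No paired analysis was possible because the labels give the groups no shared replicate numbers. The cause of the other changes was not tested. Only 3 RPR2 tumours, 1 of them almost without neuroendocrine markers, and unknown read counts limit the precision.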

Other observations

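The ratio of Eno1b to Eno1 took separate ranges in groups of RPM tumours rather than a continuous spread. It was 1.501 to 1.52 in RPM replicates 1 to 3, 1.80 to 1.99 in replicates 4 to 7 and 0.856 to 0.875 in replicates 8 to 11, and in RPR2 tumours it was 2.03, 1.95 and 1.44. The pseudogene of Pgk1, Gm5537, was at 0 in RPM replicates 1 to 3 and in RPR2 replicate 3, and at 46.9 to 117 FPKM in the other RPM tumours and 114 and 41.5 FPKM in the other RPR2 tumours. Gm4735, a pseudogene that shares 52.8% of the 50-base stretches of Eno1, ran from 0 to 114.9 FPKM in RPM tumours and stood at 215, 45.9 and 0 FPKM in RPR2 tumours. These patterns were noticed in the data, and their cause was not tested.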
